A study of Mus musculus with 10 samples.

Results

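The Schlafen genes are a family of interferon-induced genes that lie side by side in the mouse genome, and 7 of the 18223 genes in the deposited table are described here: Slfn1, Slfn2, Slfn3, Slfn4, Slfn5, Slfn8 and Slfn9. The members were picked by gene symbol alone, but the family was chosen with earlier results of these data known. The libraries came from whole subcutaneous tumours of MC38, a mouse colon adenocarcinoma cell line, and each mixes RNA of tumour cells, stroma and infiltrating immune cells. The high tumour burden (HTB) group has 5 libraries, and the low tumour burden (LTB) group has 5. HTB carries the number 2000000 in its treatment label and LTB 500000, each for 14 days, taken here to be the MC38 cells injected and the time of growth. No measured tumour size, host genotype, age or batch is given, both groups used the same 1 cell line, and the labels do not say whether each library is a separate animal, so p-values measure the spread between these libraries.

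Library totals ranged from 24884292 to 27185168 estimated reads in HTB and from 23070917 to 26880191 in LTB. A pair of libraries stood apart. HTB replicate 2 held 12600 CPM (read counts scaled to library depth) summed over 6 skeletal muscle markers, against 6.45 to 46.7 in the other HTB libraries and 2.79 to 4.96 in LTB. It also held 4780 CPM over 5 adipocyte markers, against 20.7 to 24.6 in the other HTB libraries and 10.6 to 33.3 in LTB. LTB replicate 1 held the highest sum of the pan-leukocyte markers Ptprc, Cd53, Laptm5 and Coro1a, at 795 CPM, against 192 to 294 in HTB and 396 to 501 in the other LTB libraries. Epithelial markers were low in a tumour of colon origin, at 2.56 to 6.74 CPM summed over 5 genes in HTB and 6.23 to 16.1 in LTB, with Krt18 at 0 in all LTB libraries. In whole tumours, fewer cells of a type and less RNA per cell cannot be told apart.

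Schlafen proteins share an N-terminal core, and the longest ones add a helicase-like part. Slfn1 and Slfn2 encode the short forms, Slfn3 and Slfn4 the intermediate forms, and Slfn5, Slfn8 and Slfn9 the long forms. Several are induced by type I interferon in leukocytes, and members of the family are known for restraining cell growth, for cleaving transfer RNA and for limiting virus replication. All 7 genes lie on chromosome 11 of GRCm38 within 267 kb, from 82951349 to 83218462. From the low end of that span the order is Slfn5, Slfn9, Slfn8, Slfn2, Slfn1, Slfn4 and Slfn3. Slfn8 and Slfn9 are on the minus strand and the other 5 are on the plus strand.

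The interferon-stimulated response element core was a planned search and occurred only in the long members. RefSeq (GRCm38.p6) gave a promoter of 250 bases before to 50 after the start for 7 of 7 members. The stretch ACTTCCTGG was searched on both strands after the promoters had been read, so its matches in members are no independent result. It occurred in Slfn1, Slfn2, Slfn3 and Slfn4, the short and intermediate members. It also occurred in 0.843% of 32851 mouse promoters, a share that cannot measure enrichment of a stretch chosen in this way. The interferon-stimulated response element core, searched on both strands as GAAA, 2 free bases and GAAA, occurred in Slfn5, Slfn8 and Slfn9, the long members, and in 3.44% of promoters. The gamma-activated site core TTCNNNGAA occurred in none of the members and in 8.3% of promoters. The windows upstream of the start are shown to let the 4 neighbouring plus-strand genes and the minus-strand pair be compared, with the match in capitals. ACTTCCTGG begins 74 bases before the Slfn1 start, 55 before that of Slfn2, 42 before that of Slfn3 and 73 before that of Slfn4. The response element core lies on the opposite strand in Slfn8 and Slfn9, so the capitals show its reverse complement, beginning 48 and 45 bases before the start. The coordinates are chr11:83116706-83116794 (+) for Slfn1, chr11:83065017-83065105 (+) for Slfn2, chr11:83191248-83191329 (+) for Slfn3, chr11:83175073-83175161 (+) for Slfn4, chr11:83020811-83020898 (-) for Slfn8 and chr11:82991831-82991915 (-) for Slfn9.
Slfn1: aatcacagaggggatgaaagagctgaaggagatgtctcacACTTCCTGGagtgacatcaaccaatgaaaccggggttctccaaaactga
Slfn2: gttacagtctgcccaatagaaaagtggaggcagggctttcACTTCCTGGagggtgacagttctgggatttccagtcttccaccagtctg
Slfn3: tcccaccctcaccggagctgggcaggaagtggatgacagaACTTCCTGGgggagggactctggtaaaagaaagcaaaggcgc
Slfn4: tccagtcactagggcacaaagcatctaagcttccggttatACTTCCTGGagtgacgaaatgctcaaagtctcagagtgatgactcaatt
Slfn8: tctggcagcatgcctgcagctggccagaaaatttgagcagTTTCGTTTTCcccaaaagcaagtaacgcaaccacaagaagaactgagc
Slfn9: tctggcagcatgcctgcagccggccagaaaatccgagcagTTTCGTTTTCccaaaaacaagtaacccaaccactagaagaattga
In Slfn5 the match begins 155 bases before the start, on the gene's own strand. A match is a description of the letters, not evidence of a bound site.

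Slfn1 and Slfn2, the short forms, fell in HTB relative to LTB, and no member rose. Slfn2 was 2.58-fold lower and Slfn1 3.04-fold lower by their group means, and in both every HTB library lay below every LTB library. The remaining 5 members did not pass the test. All 7 members passed the filter on low counts, with between 2388 reads (Slfn3) and 61791 reads (Slfn9) over the 10 libraries. With edgeR's quasi-likelihood test over 13469 genes, the 2 members that passed at an adjusted p of 0.05 stand beside 11.4% of all genes passing in either direction, 7.51% lower and 3.91% higher in HTB. Groups without overlap, all HTB below all LTB, were found in 2 of 7 members and in 7.06% of all genes. The estimate was negative in 6 of 7 members, with a median log2 fold change of -0.51 over the members and 0.02 over all genes tested. Without HTB replicate 2 and LTB replicate 1, Slfn1 and Slfn2 still passed, while 21.6% of all genes passed in either direction and 12.4% were lower.

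**Figure D1:**
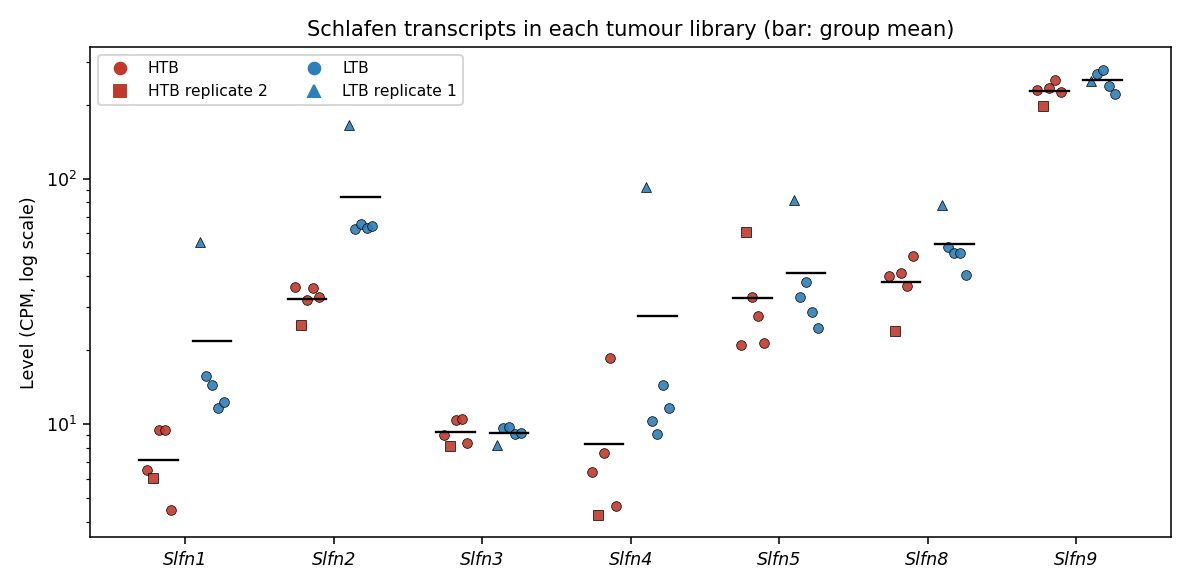
Level of each Schlafen gene in CPM (log scale) in the 5 HTB libraries (red) and 5 LTB libraries (blue), with a bar at the group mean. The HTB points of Slfn1 and Slfn2 all lie below the LTB points, and LTB replicate 1 (triangle) lies above all other libraries for Slfn1, Slfn2, Slfn4, Slfn5 and Slfn8.

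**Figure D2:**
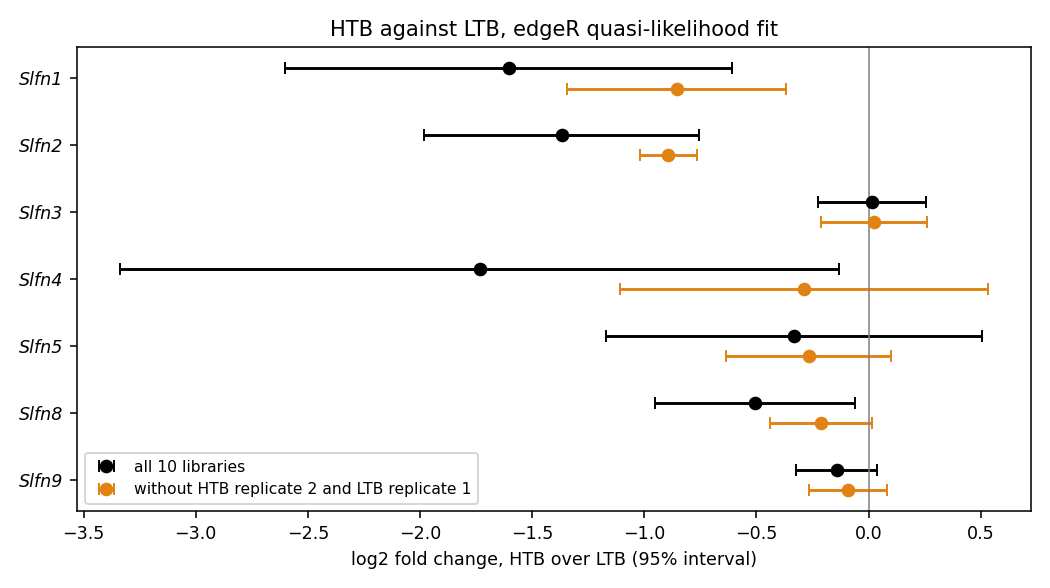
Log2 fold change of each member, HTB over LTB, with its 95% interval, from all 10 libraries (black) and without HTB replicate 2 and LTB replicate 1 (orange). Slfn1, Slfn2, Slfn4, Slfn5, Slfn8 and Slfn9 moved towards 0 without those libraries, and the intervals of Slfn1 and Slfn2 stayed below 0.

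Slfn2 keeps T cells and monocytes in a resting state; mice with a loss-of-function allele have T cells that cannot stay quiescent. Its level was 36.3, 25.3, 32.1, 35.8 and 33.0 CPM in HTB replicates 1 to 5, against 165, 62.3, 65.3, 63.2 and 64.2 CPM in LTB replicates 1 to 5. The means were 32.5 ± 4.4 CPM in HTB and 83.9 ± 45.1 CPM in LTB (SD, n = 5 each). LTB replicate 1 stood 2.58 times above the median of the other LTB libraries, which were tightly grouped at 63.8 ± 1.27 CPM (SD, n = 4). The log2 fold change was -1.37 ± 0.28 (SE; 95% interval -1.98 to -0.75), with an adjusted p of 0.0129. Without LTB replicate 1 it was -0.97, with an adjusted p of 0.00083.

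Slfn1 was first described in thymocytes, where forced expression slows growth. It had 6.52, 6.02, 9.44, 9.46 and 4.47 CPM in HTB replicates 1 to 5, against 55.0, 15.7, 14.4, 11.6 and 12.3 CPM in LTB replicates 1 to 5. The groups did not overlap: the highest HTB library had 9.46 CPM and the lowest LTB library 11.6 CPM. Means were 7.18 ± 2.21 CPM in HTB and 21.8 ± 18.6 CPM in LTB (SD, n = 5 each). The log2 fold change of Slfn1 was -1.60 ± 0.45 (SE; 95% interval -2.6 to -0.61), with an adjusted p of 0.0447, close to the threshold. LTB replicate 1 was 4.11 times the median of the other LTB libraries, and without it the value was -0.91 with an adjusted p of 0.035. The call of Slfn1 was lost when HTB replicate 1, 3, 4 or 5, or LTB replicate 2 or 3, was left out, with adjusted p between 0.0563 and 0.0962. Limma voom (adjusted p 0.0854) and a fit that kept genes of low count (adjusted p 0.0569) did not call Slfn1 either.

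Of the intermediate forms, Slfn4 varied widely within groups and Slfn3 little. Slfn4 is a myeloid gene that interferon induces in macrophages. Its level was 6.41, 4.27, 7.65, 18.7 and 4.65 CPM in HTB replicates 1 to 5, against 92.9, 10.3, 9.1, 14.5 and 11.7 CPM in LTB replicates 1 to 5. HTB replicate 4 and LTB replicate 1 were far above the rest of their groups, and the groups overlapped through HTB replicate 4. The log2 fold change of Slfn4 was -1.73 ± 0.73 (SE; 95% interval -3.34 to -0.13), which did not pass (adjusted p 0.144). LTB replicate 1 was 8.43 times the median of the other LTB libraries, and without it the value was -0.45 with an adjusted p of 0.529.

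The same libraries were high in the 7 neutrophil markers. Their summed level was 7.5, 10.7, 9.04, 27.9 and 5.46 CPM in HTB replicates 1 to 5, against 73.9, 10.9, 14.9, 12.3 and 11.5 CPM in LTB replicates 1 to 5. HTB replicate 4 and LTB replicate 1 were again the highest of their groups. Of the neutrophil markers 5 of 7 were tested and 0 passed, while Ly6g, which defines mouse neutrophils, reached at most 0.0366 CPM in HTB and 0.0757 CPM in LTB. The part of neutrophils in the Slfn4 values was not tested.

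Slfn3 is known from the gut epithelium, where it accompanies differentiation. It had 9.03, 8.18, 10.4, 10.5 and 8.39 CPM in HTB replicates 1 to 5, against 8.25, 9.65, 9.74, 9.09 and 9.25 CPM in LTB replicates 1 to 5. The groups lay over each other, with LTB replicate 1 the lowest LTB library. Means were 9.3 ± 1.1 CPM in HTB and 9.2 ± 0.593 CPM in LTB (SD, n = 5 each), and the log2 fold change was 0.02 ± 0.11 (SE; 95% interval -0.22 to 0.26; adjusted p 0.937). Slfn3 and Slfn4 share 252 of the 1917 stretches of 50 bases in the Slfn3 transcript, 13.1%, and both had fractional reads in 6 of 10 libraries, so the division of reads between them is uncertain. Summed as 1 gene, they gave a log2 fold change of -1.07 with an adjusted p of 0.184.

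Among the long forms, Slfn9 had the most reads of any member and changed little in fold. Slfn8 and Slfn9 carry annotations for transfer RNA binding and endoribonuclease activity in the deposited table. Slfn9 had 229, 197, 235, 253 and 225 CPM in HTB replicates 1 to 5, against 251, 267, 278, 238 and 222 CPM in LTB replicates 1 to 5. The groups overlapped, and LTB replicate 1 was unremarkable. Means were 228 ± 20.2 CPM in HTB and 251 ± 22.2 CPM in LTB (SD, n = 5 each), and the log2 fold change of Slfn9 was -0.14 ± 0.08 (SE; 95% interval -0.32 to 0.04; adjusted p 0.278).

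Slfn8, its neighbour on the same strand, had 40.1, 24.0, 41.3, 36.4 and 48.5 CPM in HTB replicates 1 to 5, against 78.0, 52.8, 49.7, 49.6 and 40.4 CPM in LTB replicates 1 to 5. HTB replicates 3 and 5 exceeded LTB replicate 5, the lowest of its group, so the groups overlapped. Means were 38.0 ± 8.98 CPM in HTB and 54.1 ± 14.1 CPM in LTB (SD, n = 5 each). The log2 fold change of Slfn8 was -0.51 ± 0.20 (SE; 95% interval -0.95 to -0.06), which did not pass (adjusted p 0.126). Reads of Slfn8 and Slfn9 are also hard to divide: 15.4% of the 50-base stretches of Slfn8 and 11.2% of those of Slfn9 occur in another family transcript, and fractional reads occurred in 10 and 9 of 10 libraries. Their sum gave a log2 fold change of -0.20 with an adjusted p of 0.167.

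Slfn5, a long form found in the nucleus, shares no 50-base stretch with the others, yet had fractional reads in 10 of 10 libraries. Its level was 21.0, 60.8, 33.1, 27.7 and 21.4 CPM in HTB replicates 1 to 5, against 82.0, 33.0, 37.9, 28.6 and 24.7 CPM in LTB replicates 1 to 5. Each group held 1 high library, HTB replicate 2 and LTB replicate 1, which lay 2.48 and 2.66 times above the median of the rest of their groups. The log2 fold change of Slfn5 was -0.33 ± 0.38 (SE; 95% interval -1.17 to 0.51; adjusted p 0.595). It was -0.68 without HTB replicate 2 (adjusted p 0.154), 0.07 without LTB replicate 1 (adjusted p 0.902) and -0.27 without both libraries (adjusted p 0.272), so the sign turned when LTB replicate 1 alone was left out. HTB replicate 2 also held 295 CPM over 5 endothelial markers, against 89.1 to 102 in the other HTB libraries and 69.6 to 119 in LTB, besides its muscle and adipocyte transcripts. Their part in the Slfn5 value was not tested.

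LTB replicate 1 lay at least 2-fold above every other library in 3 of 7 members, Slfn1, Slfn2 and Slfn4, and in 1.37% of all genes. Summed over the family, the level was 348, 325, 369, 391 and 346 CPM in HTB replicates 1 to 5, against 732, 450, 464, 415 and 384 CPM in LTB replicates 1 to 5. HTB replicate 4, at 391 CPM, exceeded LTB replicate 5, so the sums overlapped. The mean sum was 356 ± 25 CPM in HTB and 489 ± 139 CPM in LTB (SD, n = 5 each).

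Scaled to exon length, Slfn9, Slfn2 and Slfn8 led in both groups, and the order of the means depended on LTB replicate 1. Levels are given here as CPM per kilobase of annotated exon, since reads per gene also grow with length. In HTB the order of the means was Slfn9 at 38.2 ± 3.39, Slfn2 at 19.5 ± 2.65, Slfn8 at 9.3 ± 2.19, Slfn5 at 5.19 ± 2.6, Slfn1 at 3.85 ± 1.18, Slfn3 at 2.73 ± 0.322 and Slfn4 at 2.1 ± 1.5 CPM per kilobase (SD, n = 5). In LTB the order was Slfn2 at 50.4 ± 27.1, Slfn9 at 42.1 ± 3.73, Slfn8 at 13.2 ± 3.46, Slfn1 at 11.7 ± 9.99, Slfn4 at 6.99 ± 9.21, Slfn5 at 6.52 ± 3.69 and Slfn3 at 2.7 ± 0.174 CPM per kilobase (SD, n = 5). In HTB the ranges of mean ± SD separated Slfn9, Slfn2 and Slfn8 from one another and overlapped for each neighbouring pair after Slfn8. In LTB they separated Slfn9 from Slfn8 and overlapped for each other neighbouring pair. Slfn2 reached 98.9 CPM per kilobase in LTB replicate 1. Without that library the LTB order was Slfn9 at 42.1 ± 4.31, Slfn2 at 38.3 ± 0.764, Slfn8 at 11.8 ± 1.31, Slfn1 at 7.26 ± 1.01, Slfn5 at 4.91 ± 0.898, Slfn4 at 2.88 ± 0.583 and Slfn3 at 2.77 ± 0.0921 CPM per kilobase (SD, n = 4). The mean of Slfn2 lay within the mean ± SD range of Slfn9, but the mean of Slfn9 lay above that of Slfn2 by more than the SD of Slfn2.

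As shares of the family's summed CPM per kilobase, Slfn9 made up 47.2 ± 0.45% in HTB and 34.3 ± 8.94% in LTB (SD, n = 5 each). Across HTB it stayed between 46.8% and 47.9%, while LTB replicate 1 had 18.4% and the other LTB libraries 36.5% to 39.9%. Slfn2 made up 24.1 ± 2.03% in HTB and 36.6 ± 4.22% in LTB (SD, n = 5 each), ranging from 21.6% to 26.9% in HTB, from 32.8% to 37.9% in LTB replicates 2 to 5, and reaching 43.3% in LTB replicate 1. Neither share overlapped between the groups, and no background over all genes was computed for shares or ratios. The shares of a library add up to the whole, so a larger Slfn2 share lowers that of Slfn9. Slfn9 itself overlapped between the groups, at 228 CPM on average in HTB and 251 CPM in LTB. The shares and the ratio below therefore restate the difference in Slfn2 and are no separate result. The ratio of Slfn2 to Slfn9 CPM averaged 0.142 ± 0.0111 in HTB and 0.336 ± 0.18 in LTB (SD, n = 5 each), with 0.129 to 0.159 in HTB, 0.234 to 0.289 in LTB replicates 2 to 5 and 0.655 in LTB replicate 1. The ratio of Slfn1 to Slfn2, the short pair, overlapped in part, at 0.135 to 0.294 in HTB and 0.184 to 0.334 in LTB.

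**Figure D3:**
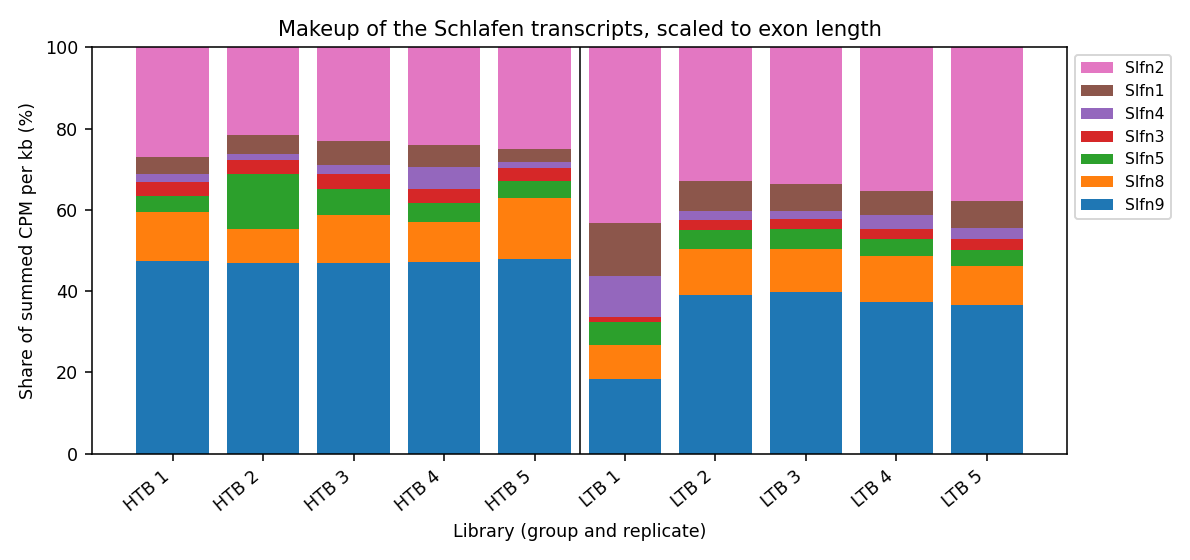
Share of each Schlafen gene in the family's summed CPM per kilobase of exon (%), 1 stacked bar per library, with HTB replicates left of LTB replicates. Slfn9 (blue, bottom) takes 46.8% to 47.9% of every HTB bar, and Slfn2 (pink, top) takes a larger part of every LTB bar than of any HTB bar.

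Ptprc encodes CD45, carried by nearly all leukocytes, and all 4 pan-leukocyte markers fell in HTB, as did 7.51% of all genes tested. Ptprc had 47.1, 33.4, 34.2, 34.3 and 27.4 CPM in HTB replicates 1 to 5, against 138, 83.0, 107, 66.4 and 63.0 CPM in LTB replicates 1 to 5. Its log2 fold change was -1.37 ± 0.22 (SE), with an adjusted p of 0.00518, the same size as that of Slfn2. Set against Ptprc in the same library, Slfn2 had a ratio of 0.943 ± 0.188 in HTB and 0.905 ± 0.228 in LTB (SD, n = 5 each). The Slfn1 ratio was 0.207 ± 0.065 in HTB and 0.219 ± 0.103 in LTB (SD, n = 5 each). Both ratios overlapped between the groups. How far leukocyte number set the Slfn1 and Slfn2 levels cannot be told apart from their level per leukocyte.

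The ratio to Ptprc of Slfn9 was 6.64 ± 1.3 in HTB and 2.95 ± 0.74 in LTB, and that of Slfn3 was 0.271 ± 0.0513 in HTB and 0.11 ± 0.0353 in LTB (SD, n = 5 each). Both were higher in every HTB library than in any LTB library, as were the ratios of 77.7% of all genes tested, so this share is the background for any gene that did not fall with Ptprc. The ratios of Slfn4, Slfn5 and Slfn8 overlapped. Slfn8 had 1.12 ± 0.407 in HTB and 0.611 ± 0.104 in LTB, and Slfn5 had 0.964 ± 0.514 in HTB and 0.434 ± 0.0935 in LTB (SD, n = 5 each). Slfn4 had 0.24 ± 0.174 in HTB and 0.258 ± 0.238 in LTB (SD, n = 5 each).

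**Figure D4:**
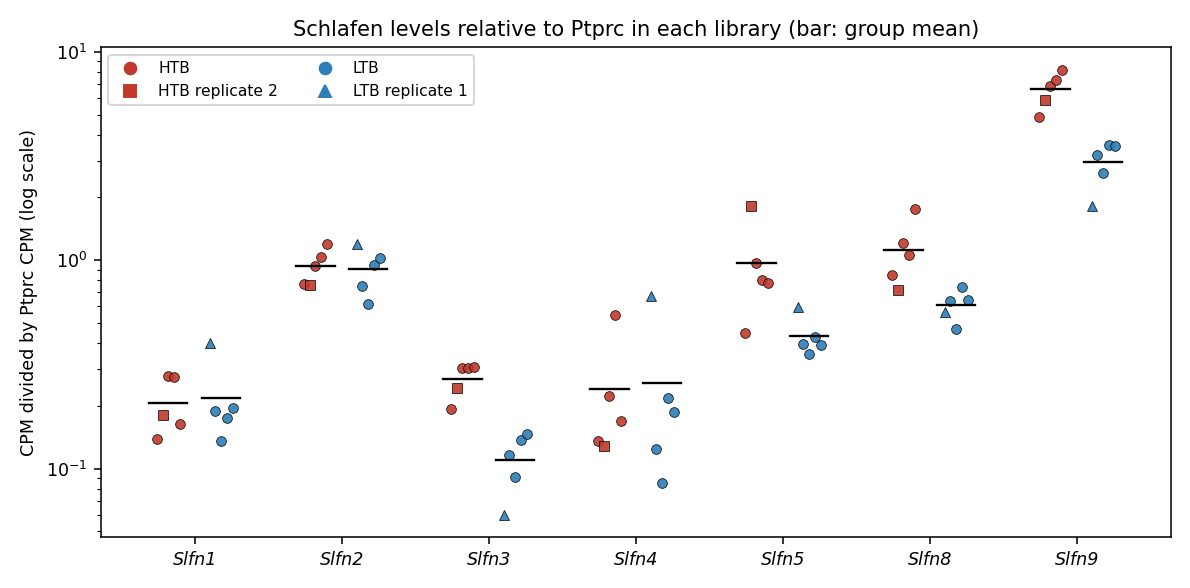
CPM of each Schlafen gene divided by CPM of Ptprc in the same library (log scale), 5 HTB libraries (red) and 5 LTB libraries (blue), with a bar at the group mean. Slfn1, Slfn2 and Slfn4 overlap between the groups, while every HTB point of Slfn3 and Slfn9 lies above the LTB points.

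Members of several other leukocyte lists fell in HTB, though not of all, beside 7.51% of all genes lower and 3.91% higher. Of 8 T cell markers 6 fell and 0 rose, with a median log2 fold change of -1.85, led by Lck, the kinase of the T cell receptor (5.69 ± 2.29 CPM in HTB and 18.2 ± 8.14 CPM in LTB, SD, n = 5 each), Cd2 and Cd3d. Summed, they ranged from 16.7 to 45.0 CPM over the HTB libraries and from 45.0 to 212 CPM over the LTB libraries, LTB replicate 1 being the highest. Of 8 macrophage and monocyte markers 4 fell and 0 rose, with a median of -0.95. These were the integrin Itgam, the chemokine receptor Ccr2, Ly6c2 and Cd68. Without HTB replicate 2 and LTB replicate 1, 5 of these 8 markers were lower and 1, Mertk, was higher (log2 fold change 0.53). In that run 12.4% of all genes were lower and 9.26% higher. Summed, they ranged from 195 to 339 CPM over the HTB libraries and from 329 to 864 CPM over the LTB libraries, with LTB replicate 1 again the highest. Of 4 tested mast cell markers 3 fell, the proteases Cpa3, Tpsb2 and Mcpt4, with a median of -3.15. Among NK cell markers the receptors Klrk1 and Ncr1 fell, 2 of 6, and among dendritic cell markers Itgax and Flt3 fell, 2 of 6. Of 3 tested B cell markers 0 passed. Slfn1, Slfn2, Slfn4, Slfn5 and Slfn8 were highest in LTB replicate 1. That library also had the highest summed T cell, NK cell, B cell, macrophage, neutrophil and mast cell markers. Its summed dendritic cell markers were not the highest, at 24.8 CPM against 23.8 to 55.7 CPM in the other LTB libraries. The part of each cell type was not tested.

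Schlafen genes are induced through the interferon receptors, and some genes of that pathway fell in HTB. Of 12 genes for the receptors, kinases, transcription factors and inhibitors, 5 fell and 0 rose, among them Stat2, Irf9, Socs1 and Ifngr1. Stat2, a transcription factor of the type I interferon response, had 93.8 ± 18.6 CPM in HTB and 171 ± 20.1 CPM in LTB (SD, n = 5 each), and its log2 fold change was -0.86 ± 0.13 (SE). The kinases Jak1 (220 ± 6.31 CPM in HTB, 221 ± 5.2 CPM in LTB) and Tyk2 (36.4 ± 2.08 CPM in HTB, 36.8 ± 4.04 CPM in LTB) had estimates near 0 (SD, n = 5 each). The median over the 12 was -0.28, against 0.02 over all genes, of which 7.51% were lower and 3.91% higher in HTB.

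Of 17 tested interferon-induced genes 6 fell and 0 rose, with a median of -0.58, beside 7.51% of all genes lower and 3.91% higher. Gbp2, an interferon gamma-induced GTPase, had 157 ± 30.2 CPM in HTB and 859 ± 298 CPM in LTB (SD, n = 5 each). The log2 fold change of Gbp2 was -2.45 ± 0.23 (SE), at an adjusted p of 0.000593. Irf1 had a log2 fold change of -1.40 ± 0.14 (SE), and the chemokine Cxcl9 -2.42 ± 0.37 (SE). The others that fell were Cxcl10, Bst2 and Xaf1. Ifit1, Ifit2, Ifit3 and Rsad2, also interferon-induced genes of the list, were named after their values were seen. They did not pass, with log2 fold changes of -0.10, -0.20, -0.36 and -0.39. Without HTB replicate 2 and LTB replicate 1 these were 0.27, 0.12, 0.10 and 0.08, so their direction depended on those libraries. They do not stand for the whole list: Isg15, Oasl2, Irf7 and Ifi44 did not pass either, at -0.71, -0.58, -0.56 and -0.69. Without those libraries Isg15, Oasl2, Irf7 and Ifi44 stayed negative, at -0.38, -0.34, -0.15 and -0.35, and Ifi44 then passed (adjusted p 0.0473). Over all 10 libraries the estimates of the members were -1.6 for Slfn1, -1.37 for Slfn2, 0.02 for Slfn3 and -1.73 for Slfn4. They were -0.33 for Slfn5, -0.51 for Slfn8 and -0.14 for Slfn9. Differences between the members and the listed genes were not tested. Mx1, Mx2 and Shfl were not analysed here.

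Schlafen proteins of the long group act on RNA, so a list of other interferon-linked antiviral genes was counted, not all of which act on RNA themselves. Of 9 tested, 4 fell and 0 rose, beside 7.51% of all genes lower and 3.91% higher. They were Samhd1, a nucleotide hydrolase (215 ± 23.1 CPM in HTB and 454 ± 86.3 CPM in LTB, SD, n = 5 each), the oligoadenylate synthetases Oas3 and Oas1a, and the exonuclease Isg20.

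Slfn2 is known for T cell quiescence, and 8 other quiescence genes were counted beside it. Only Btg1, an antiproliferative gene, fell among the 8 (187 ± 24.5 CPM in HTB and 263 ± 53.6 CPM in LTB, SD, n = 5 each; log2 fold change -0.49), where 7.51% of all genes were lower. Klf2 and Foxo1, transcription factors of resting T cells that other cells also express, had log2 fold changes of 0.06 and -0.06. Without HTB replicate 2 and LTB replicate 1, Btg1, Btg2 and Vsir were lower, 3 of 8, where 12.4% of all genes were lower. Human SLFN11 binds the single-strand DNA-binding protein RPA at stalled forks. Of 7 genes of that response 1 fell, the licensing factor Cdt1 (64.8 ± 6.49 CPM in HTB and 86.0 ± 7.43 CPM in LTB, SD, n = 5 each), beside the same 7.51% of all genes. Without HTB replicate 2 and LTB replicate 1 Cdt1, Rpa1 and Rpa2 were lower, 3 of 7, beside the same 12.4% of all genes.

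The genes whose levels ran most like each member were ranked by the root mean square difference of z-scored log2(CPM + 0.5) over the 10 libraries, among 12324 genes. For Slfn2 they were Cd53 (0.14), a leukocyte tetraspanin, Msr1 (0.15), a macrophage scavenger receptor, and Slc15a3 (0.16), a lysosomal transporter. Cd53 had 35.9 ± 6.56 CPM in HTB and 97.2 ± 50.3 CPM in LTB, and Msr1 had 38.8 ± 6.36 CPM in HTB and 94.1 ± 39.1 CPM in LTB (SD, n = 5 each). All of these were highest in LTB replicate 1, at 186 CPM for Cd53 and 163 CPM for Msr1. For Slfn1 they were Fcgr1 (0.22), the high-affinity IgG receptor of macrophages, Ifi209 (0.23), of the interferon-induced IFI200 family, and Snx5 (0.23), a sorting nexin. Fcgr1 had 20.4 ± 3.6 CPM in HTB and 52.0 ± 42.9 CPM in LTB (SD, n = 5 each), with 128 CPM in LTB replicate 1, and did not pass (adjusted p 0.0621).

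For Slfn8 the nearest genes were H2-T24 (0.25), a non-classical MHC class I gene, Ifi206 (0.25), of the IFI200 family, and Ifi44 (0.26), an interferon-induced gene. Ifi206 had 11.7 ± 3.7 CPM in HTB and 27.0 ± 17.5 CPM in LTB, and Ifi44 had 61.1 ± 18.1 CPM in HTB and 98.6 ± 26.8 CPM in LTB (SD, n = 5 each). Neither passed, with adjusted p of 0.0662 and 0.0903. For Slfn5 the nearest were Pde7b (0.21), a phosphodiesterase, Scarf1 (0.22), a scavenger receptor of endothelial cells, and Psma4 (0.27), a proteasome subunit. Scarf1 had 5.97 ± 3.14 CPM in HTB and 7.34 ± 3.01 CPM in LTB (SD, n = 5 each), and its highest levels were 11.5 CPM in HTB and 12.6 CPM in LTB replicate 1. For Slfn4 they were Pdxp (0.35), Mphosph6 (0.36) and Blvra (0.36), for Slfn9 Nab1 (0.27), Cebpg (0.43) and Dnm1l (0.49), and for Slfn3 they included Bend6 (0.52) and Cd33 (0.53). The measure weights LTB replicate 1 heavily wherever that library stands far from the others, as it does for Slfn1, Slfn2, Slfn4 and Slfn5.

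**Figure D5:**
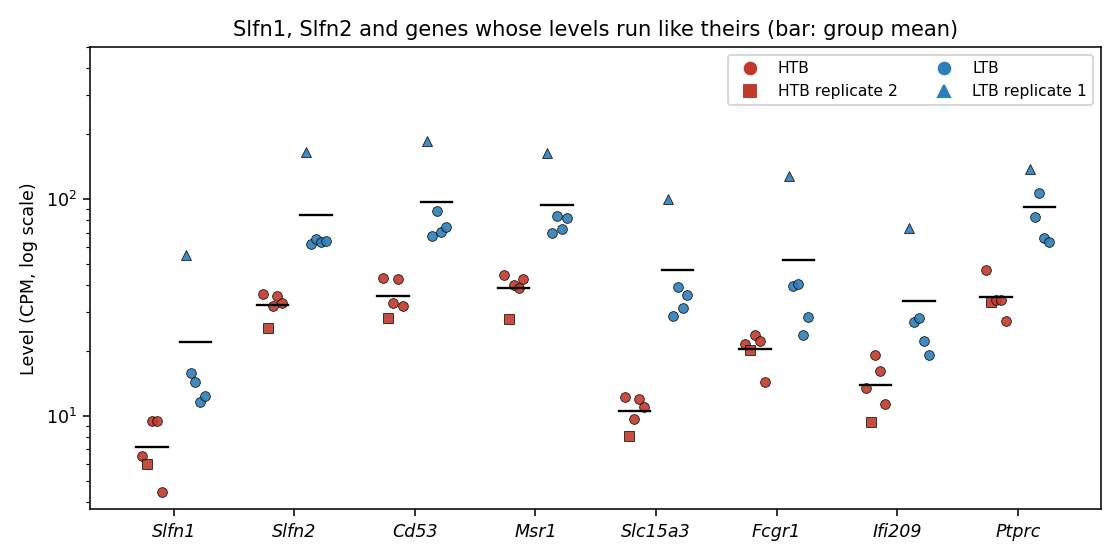
Levels in CPM (log scale) of Slfn1, Slfn2, 5 of the genes whose levels run most like theirs, and Ptprc, in 5 HTB libraries (red) and 5 LTB libraries (blue), with a bar at the group mean. LTB replicate 1 (triangle) is the highest library for each gene shown, and every HTB library of Slfn1, Slfn2, Cd53, Msr1, Slc15a3 and Ptprc lies below the LTB libraries.

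The authors' deposited table gave log2 fold changes of the same sign and nearly the same size for all 7 members. Its q-values were 0.00323 for Slfn1 and 2.8e-05 for Slfn2, and above 0.05 for the other 5, the lowest being 0.0953 for Slfn8. In the authors' deposited table Slfn10-ps, a relative whose transcript shares sequence with Slfn8 and Slfn9, had a q of 0.041. By edgeR Slfn10-ps had 7.88 ± 1.38 CPM in HTB and 10.7 ± 1.4 CPM in LTB (SD, n = 5 each), with an adjusted p of 0.0736. The relative Slfn14 had 2 reads over all HTB libraries and 0 over all LTB libraries, and Slfnl1, on chromosome 4, had 12 and 4, so neither was tested.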

How the data were processed

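RNA-seq of 10 whole-tumour libraries, 5 HTB and 5 LTB, was analysed from 1 gene table. Per the labels' protocols, total RNA was purified on silica columns, and a SMARTer mRNA kit was used for library preparation. Per the submitters' processing notes the build was GRCm38, or mm10. Which tools aligned and counted the reads, and whether strand was used, was not given in the sources used here, and antisense or overlapping genes may share reads. The authors deposited estimated counts per gene and library, 86.4% of them whole within 1e-09; all were rounded to whole numbers. The authors' deposited group averages of expression are a score whose unit is not stated and served only to compare ranks. Per the file headers, the deposited p-values and q-values came from DESeq2; the header of the deposited log2 fold change names no tool. A positive log2 value means more reads in HTB, in 100% of the 2638 genes with a q under 0.05. The only line without a gene name was dropped.

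The family and the gene lists were chosen with earlier results of these data known. The main test was edgeR 4.0.16 (R 4.3.3), quasi-likelihood, TMM factors 0.975 to 1.03, filterByExpr, group as the only term, with Benjamini-Hochberg adjustment over 13469 genes and a threshold of 0.05. It was tested on simulated data. CPM used TMM-scaled totals, and intervals the t distribution with 10.7 degrees of freedom. Exon lengths came from GENCODE, promoters from RefSeq. Shared sequence was counted as stretches of 50 bases in the longest coding transcript of each gene. Named genes were the members, the 3 nearest genes of each by level, the 3 list genes of smallest p, and list genes that complete a count of 5 or fewer. Jak1, Tyk2, Ifit1, Ifit2, Ifit3, Rsad2, Isg15, Oasl2, Irf7, Klf2, Foxo1, Ly6g, Cxcl10, Bst2 and Xaf1 were named after their values were seen. A few genes chosen in this way are not reported here. Protein identity was not analysed here. Alternatives were DESeq2 1.42.0, limma 3.58.1 voom, other size factors, filters, thinning, the replicate block, unrounded counts and leaving out libraries. Summing Slfn3 with Slfn4, or Slfn8 with Slfn9, in the test was added after seeing the data. No pair of libraries within a group agreed within counting noise, so none was merged; this does not show that they came from separate animals.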

Additional observations from a re-analysis of the deposited data

Results flagged for a closer look

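Of 28 sets of 5 values tested for a sample far from the others, 8 held one, where chance gives about 1 in 20 for independent, normally distributed values. These sets were not independent: all came from the same 10 libraries, and the ratios to Ptprc reuse the CPM. The values were also not logged, so that rate is only a rough guide. LTB replicate 1 stood apart at 55.0 CPM for Slfn1, 165 CPM for Slfn2, 92.9 CPM for Slfn4 and 82.0 CPM for Slfn5. It also stood apart for the ratio to Ptprc of Slfn1, at 0.399, and of Slfn4, at 0.674. HTB replicate 4 stood apart at 18.7 CPM for Slfn4 and, relative to Ptprc, at 0.544. The causes were not tested.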

How the results depend on the processing

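Slfn2 passed in every alternative run, with log2 fold changes of -1.46 to -0.97 when 1 library was left out and -1.37 to -0.89 otherwise. Slfn1 gave -1.38 with limma voom, -1.59 with no filter and -1.35 with the replicate block, none passing, and -1.76 to -0.91 without 1 library. Slfn3 ran from -0.03 to 0.06 without 1 library, and Slfn5 from -0.68 to 0.07. The sum of Slfn3 and Slfn4 gave -1.07, which is not a value of Slfn3 alone. In LTB replicate 1 Slfn4 had 92.9 CPM of the summed 101 CPM. Slfn8 passed with voom sample weights (-0.36, adjusted p 0.0361). Members passing numbered 1 with DESeq2 (which gave no p for Slfn1 and Slfn4), voom, no filter and the replicate block, and 1 to 2 without 1 library. Genes passing, 1537 in the main test, numbered 2510 with DESeq2, 3593 with voom sample weights, 971 with the replicate block, 2908 without HTB replicate 2 and LTB replicate 1, and 736 to 3040 without 1 library. Correlations between same-numbered libraries were -0.0175 to 0.105, and 2 of 5 matched their own number best. These values cannot settle whether the replicate numbers mark a pairing or batch, since HTB replicate 2 and LTB replicate 1 stood far from the rest. The labels name neither, so the main test used no block. As shares of reads with no length scaling Slfn9 held 63.9% in HTB and 53.7% in LTB, and Slfn2 9.12% in HTB and 16.5% in LTB; Slfn8 and Slfn9 summed per kilobase held 58.7% in HTB and 44.5% in LTB. With a pseudocount of 1, 2 of the 3 genes nearest Slfn4 remained. Unless stated with a value, the causes were not tested. Depth limits Slfn14 and Slfnl1, which had too few reads to test.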
